A study of Mus musculus with 6 samples.

Results

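The miR-30 family is a group of microRNAs (miRNAs) that share a seed, the stretch of bases 2 to 8 that pairs with target messenger RNAs. Its members here are the wells of a mouse miRNA panel named miR-30a, miR-30b, miR-30c, miR-30d and miR-30e, which are 5 of 380 named miRNAs on the panel and 5 of the 123 that gave a signal in every sample. They were picked by name, and the family itself was chosen with earlier results of these data known. Serum exosomes, membrane vesicles shed by cells into the circulation, were profiled for miRNAs by quantitative PCR in 3 samples from mice given OCExoInhib and 3 from mice given vehicle. Mice of both groups had undergone ACLT (read here as anterior cruciate ligament transection, which destabilises the knee and leads to osteoarthritis), and sera were studied after 2 weeks. OCExoInhib is not spelled out in the labels; it is known as a treatment that blocks exosome release by osteoclasts, the cells that resorb bone. Strain, sex and age are not given in these labels. Exosomal miRNA of 3 mice per group was pooled in equal amounts according to the design text, which leaves unsaid if each sample is 1 mouse or 1 run of the pool, so the p-values describe the spread between samples and that spread may be technical.

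A miRNA is cut from a hairpin precursor, loaded into an Argonaute protein and guided by its seed to messenger RNAs, whose translation and stability it lowers. Members of a seed family can therefore share targets while being made from separate genes. The miR-30 family is known for restraining the differentiation of osteoblasts, the bone-forming cells, by lowering the transcription factor Runx2 and the signalling protein Smad1. It is also known from kidney podocytes, from heart muscle and from the control of autophagy.

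The mature sequences show how close the family is. Those of miR-30a, miR-30e, miR-30c and miR-384-5p were matched by their panel sequence to RefSeq (build GRCm38.p6), and the seed is in capitals.
miR-30a: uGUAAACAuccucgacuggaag
miR-30e: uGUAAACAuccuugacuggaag
miR-30c: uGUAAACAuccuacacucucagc
miR-384-5p: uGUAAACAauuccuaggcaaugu
Counting from 1 at the 5′ end, miR-30a and miR-30e differ over their 22 bases by the single substitution C13U, with the base of miR-30a first. miR-30a and miR-30c differ at 5 of the first 22 positions, C13A, G14C, G18C, G19U and A20C, and miR-30c is 1 base longer. miR-384-5p, a miRNA known from neurons, is the sixth panel miRNA with this seed and had no signal in any sample.

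The family comes from 6 genes on 3 chromosomes. The mature miR-30a lies at chr1:23272274-23272295 on the plus strand. miR-30c has 2 genes, one on chromosome 1 beside miR-30a (chr1:23291714-23291736, plus strand) and one on chromosome 4 (chr4:120769584-120769606, minus strand) beside miR-30e (chr4:120772660-120772681, minus strand). Both genes on chromosome 4 lie within the span of Nfyc, which encodes a subunit of the transcription factor NF-Y. The RefSeq gene table places the genes of miR-30b and miR-30d both on chromosome 15. The PCR reads the mature miRNA, so the contributions of both miR-30c genes cannot be told apart. No other strand of these hairpins was on the panel under a miR-30 name.

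The threshold cycle (Ct) is the PCR cycle at which a well's fluorescence crosses a limit, so an earlier (lower) Ct means more template, by about 1 doubling per cycle. All 5 members had a Ct in all 6 samples, between 21.2 and 32.4, and all were earlier than the limit of 35 that was required in at least 3 samples for testing. The log2 level used below is the negative of the deposited normalized value, that is, the mean Ct of 3 control wells minus the Ct of the miRNA. Levels of different members come from different assays of unstated efficiency, so their order is an order of signals. Of the miRNAs that mark other cell types, miR-451, miR-486, miR-122, miR-1, miR-142-3p and miR-126-3p were among those with no Ct in any sample. By the test described next, 1 of 2 tested red cell markers was called lower (miR-16, log2 difference −5.41, beside miR-144 at −0.56), as was 1 of 2 liver markers (miR-194, −5.27, beside miR-192 at −0.16). Of 3 tested muscle markers 1 was called lower (miR-133a, −2.82, beside miR-206 at −0.28 and miR-499 at −0.62). The share called lower among all 115 tested miRNAs was 17.4%. miR-16, miR-194 and miR-133a each carried a Ct difference between samples that recurred in other miRNAs, as described below. The 1 tested leukocyte marker, miR-150 (0.44), and the 1 tested brain marker, miR-128 (−0.03), did not pass. The part of these cell types in the results for the family was not tested.

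In OCExoInhib samples miR-30d and miR-30a were lower than in vehicle samples relative to the control wells, and miR-30b, miR-30c and miR-30e did not pass the test. Among all 115 tested miRNAs 17.4% were called lower and 6.09% higher, against 2 of the 5 members lower and 0 higher, by limma with a Benjamini-Hochberg adjusted p under 0.05 over all 115. Those calls were 20 lower and 7 higher, against 9 lower and 7 higher with quantile normalization and 11 lower and 57 higher with centring on sample medians. The median log2 difference (OCExoInhib minus vehicle) was −0.89 over the 5 members and −0.54 over all tested miRNAs. In such a sample, fewer exosomes carrying a miRNA and less of it per exosome cannot be told apart.

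miR-30d, known for raising insulin gene expression in pancreatic beta cells, had the largest difference of the family. Its Ct was 30.7, 31.6 and 28.8 in OCExoInhib samples 1, 2 and 3, and 22.7, 25.7 and 22.8 in vehicle samples 1, 2 and 3. Every OCExoInhib sample was later than every vehicle sample, and vehicle 2 was the latest of its group by 2.92 cycles. The log2 level averaged −0.20 ± 0.91 in OCExoInhib and 7.15 ± 2.01 in vehicle samples (each n = 3, SD). The level was 163-fold lower in OCExoInhib samples (95% confidence interval 38.8 to 682, log2 difference −7.35, SE 0.97, limma adjusted p 3.63e-05), which was the second largest fall among 20 miRNAs called lower. Without vehicle 2 the fold was 363 (log2 difference −8.51), and without vehicle 3 it was 107 (log2 difference −6.74). It passed the threshold under all 20 alternatives in which it was tested, with adjusted p between 1.0e-12 and 0.0440. The lowest came without vehicle 2, where limma gave every member the same SE of 1.06, so the spread of miR-30d itself did not enter. The highest came with the unmoderated test, which uses only the spread of miR-30d.

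miR-30a, known for lowering the autophagy protein Beclin 1, had the second largest difference of the family. Its Ct was 32.4, 31.8 and 28.4 in OCExoInhib samples 1, 2 and 3, and 28.0, 27.7 and 27.1 in vehicle samples 1, 2 and 3. The groups did not overlap, but OCExoInhib 3 came within 0.336 cycles of vehicle 1 and stood 3.46 cycles before the next sample of its own group. The log2 level averaged −0.68 ± 1.70 in OCExoInhib and 3.29 ± 0.69 in vehicle samples (each n = 3, SD). The level was 15.7-fold lower (95% confidence interval 4.16 to 59.5, log2 difference −3.98, SE 0.90, limma adjusted p 0.00255). The fold was 30.4 without OCExoInhib 3 and 9.77 without OCExoInhib 1, and both still passed. The call was lost with global mean normalization (adjusted p 0.0638), with none (0.0639), with quantile normalization (0.266), with centring on sample medians (0.138) and with the unmoderated test (0.0993). Over all alternatives its adjusted p ranged from 0.000212 to 0.266.

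**Figure D1:**
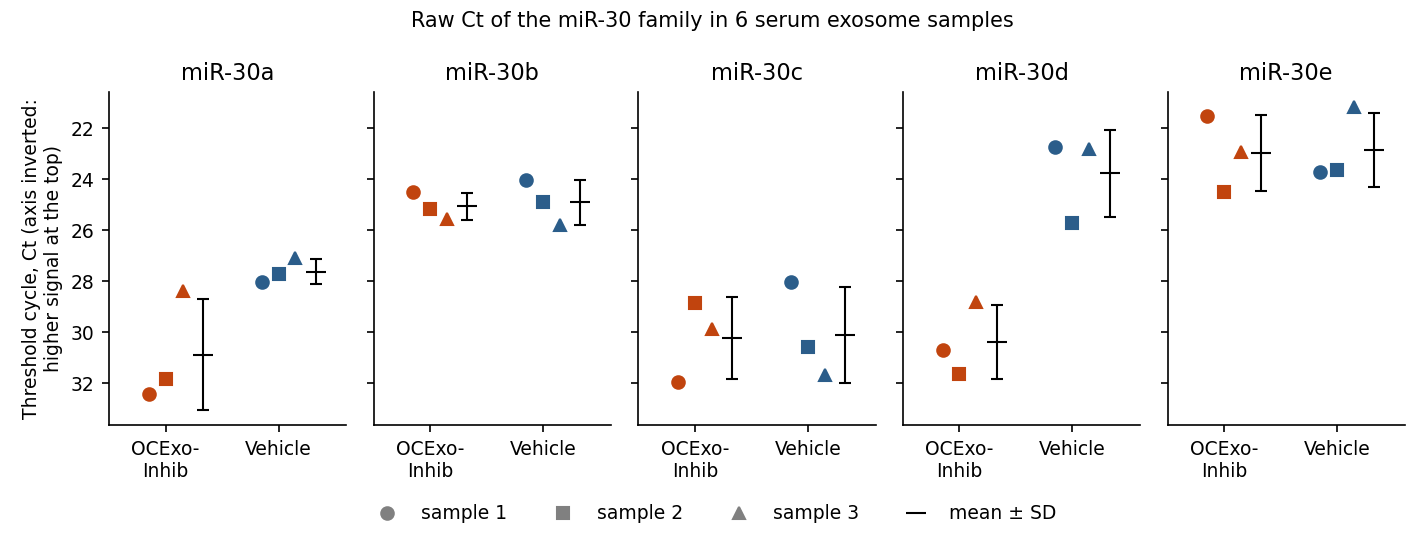
Raw Ct of each miR-30 member, with OCExoInhib samples at the left and vehicle samples at the right of each panel, the Ct axis inverted and mean ± SD beside the points. For miR-30d and miR-30a all OCExoInhib samples lie below all vehicle samples, and for miR-30b, miR-30c and miR-30e the groups overlap.

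Non-overlapping log2 levels were found for these 2 members and for 26.1% of all tested miRNAs, and non-overlapping raw Ct values for the same members and 25.2% of all tested miRNAs. The mean vehicle Ct of miR-30d, 23.8, was the tenth earliest of the 115 and its mean OCExoInhib Ct, 30.4, ranked 81. miR-30a ranked 91 in OCExoInhib samples (mean Ct 30.9) and 64 in vehicle samples (mean Ct 27.6). The OCExoInhib mean log2 levels of miR-30d (−0.20) and miR-30a (−0.68) lay near the level of the control wells. So did those of other called miRNAs, whether lower (miR-148a, −0.02, and let-7e, −0.075) or higher (miR-28, 0.27, and miR-29c, 0.62). The called miRNA farthest from it was miR-107 (−2.31). Among miRNAs that did not pass, these means ran from −4.70 (miR-34b-5p) to 9.83 (miR-489). How this pattern bears on the 2 members was not tested.

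miR-30b, known from melanoma, where it is overexpressed with miR-30d, had overlapping groups. Its Ct was 24.5, 25.2 and 25.6 in OCExoInhib samples 1, 2 and 3, and 24.0, 24.9 and 25.8 in vehicle samples 1, 2 and 3. The log2 difference was −0.89 (95% confidence interval −2.62 to 0.85, limma adjusted p 0.866). It was the least variable member, with a pooled SD of 0.736 cycles within groups.

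miR-30c, the member best known for lowering Runx2, had the latest vehicle Ct of the family. Its Ct was 32.0, 28.9 and 29.9 in OCExoInhib samples 1, 2 and 3, and 28.0, 30.6 and 31.7 in vehicle samples 1, 2 and 3. Both groups ran over more than 3 cycles and covered nearly the same range. The log2 difference was −0.85 (95% confidence interval −3.06 to 1.36, limma adjusted p 0.866), and it was 0.22 without vehicle 1.

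miR-30e, known for lowering the Wnt co-receptor LRP6 in bone-forming and fat cells, had the earliest mean Ct of the family in both groups. Its Ct was 21.5, 24.5 and 22.9 in OCExoInhib samples 1, 2 and 3, and 23.7, 23.6 and 21.2 in vehicle samples 1, 2 and 3. The groups overlapped, with the earliest value in vehicle 3. The log2 difference was −0.86 (95% confidence interval −2.93 to 1.21, limma adjusted p 0.866), and it was 0.11 without vehicle 3.

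The intervals of miR-30b, miR-30c and miR-30e still allow falls of up to 6.15-, 8.34- and 7.64-fold, so the test does not show that these levels were equal. The log2 differences of all 3 were above 0 with global mean normalization (0.29, 0.33 and 0.32) and with centring on sample medians (1.64, 1.68 and 1.66), and that of miR-30c also with quantile normalization (0.25). The median of all tested miRNAs moved with these settings, from −0.54 on the deposited scale to 0.64 with global mean, 1.98 with median centring, 0.20 with quantile and 0.18 with no normalization. Relative to the median of all tested miRNAs, miR-30d stood at −6.80 and miR-30a at −3.43, and miR-30b, miR-30c and miR-30e at −0.34, −0.31 and −0.32. These relative values are the same under every normalization that shifts a whole sample. Quantile normalization, which does not, gave −6.64, −2.64, −0.34, 0.05 and −0.33 in the same order of members.

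**Figure D2:**
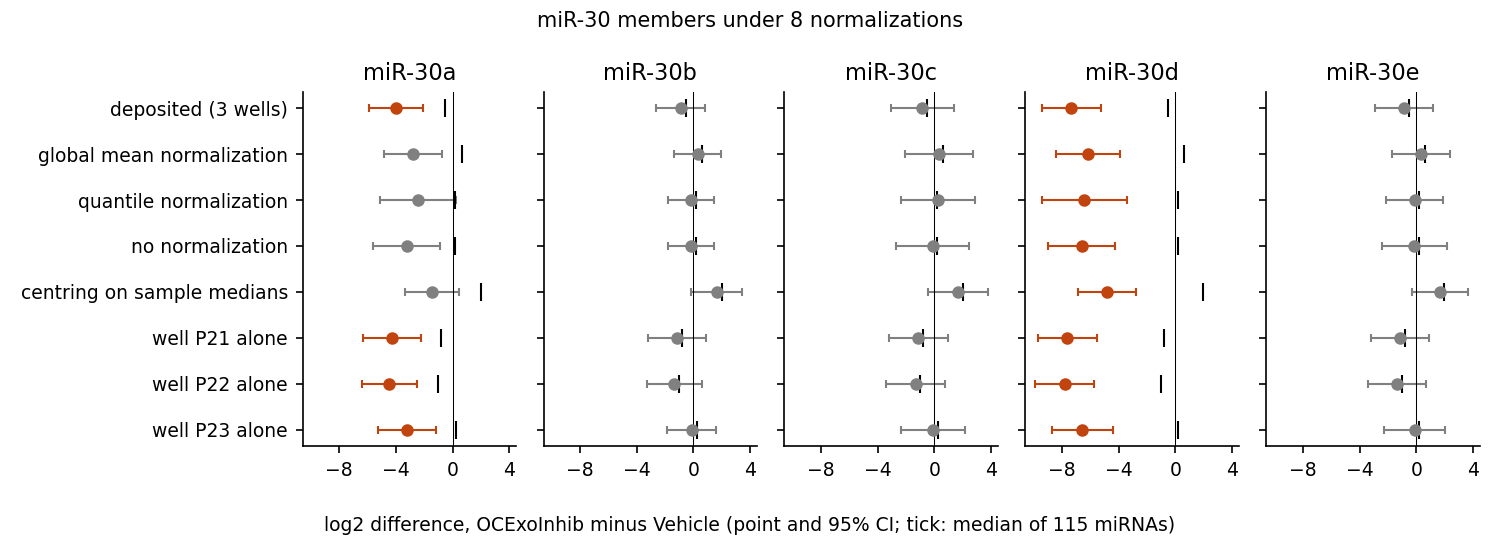
log2 difference (OCExoInhib minus vehicle) of each member under 8 normalizations, with 95% confidence intervals, in orange where the limma adjusted p was under 0.05 and grey elsewhere; black ticks mark the median of all 115 miRNAs. miR-30d stays below that median throughout, from −7.83 to −4.82, while miR-30b, miR-30c and miR-30e follow the median.

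The 3 control wells together averaged Ct 30.2 ± 0.531 for OCExoInhib and 30.9 ± 0.318 for vehicle samples (SD, n = 3 each), a difference of −0.725 cycles. That difference is most of the value of the members that did not pass, whose raw mean Ct differed by only 0.162 cycles (miR-30b), 0.126 cycles (miR-30c) and 0.137 cycles (miR-30e). Of the 88 tested miRNAs that did not pass, 32 (36.4%) had a raw mean difference of at most 0.2 cycles. With well P23 alone as the normalizer, whose own means differed by 0.035 cycles, the log2 difference was −6.59 for miR-30d and −3.22 for miR-30a, and between −0.13 and −0.09 for the other members.

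**Figure D3:**
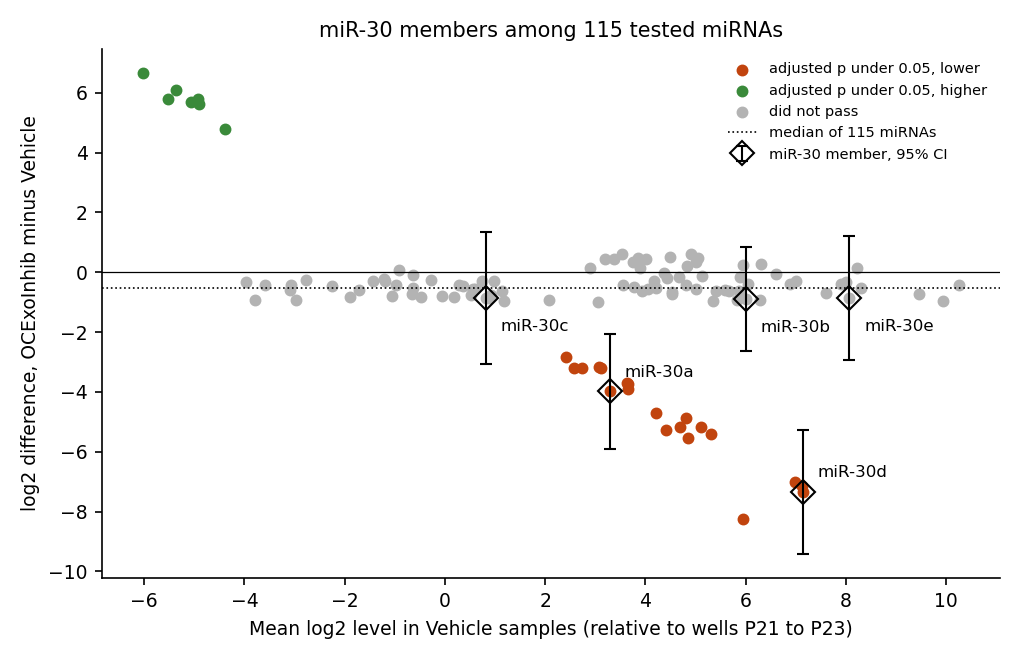
log2 difference (OCExoInhib minus vehicle) against the mean log2 level in vehicle samples for 115 miRNAs, with miR-30 members as open diamonds with 95% confidence intervals. miR-30d (−7.35) and miR-30a (−3.98) lie among the miRNAs called lower, and the other members near the dotted median of −0.54.

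The order of mean signals within the family differed between groups. In OCExoInhib samples the mean Ct ran from miR-30e (22.99) through miR-30b (25.1), miR-30c (30.2) and miR-30d (30.4) to miR-30a (30.9). In vehicle samples it ran from miR-30e (22.8) through miR-30d (23.8), miR-30b (24.9) and miR-30a (27.6) to miR-30c (30.1). miR-30c, miR-30d and miR-30a overlapped in OCExoInhib samples, with ranges of 28.9 to 32.0, 28.8 to 31.6 and 28.4 to 32.4. In vehicle samples miR-30d (22.7 to 25.7) overlapped both miR-30e (21.2 to 23.7) and miR-30b (24.0 to 25.8). miR-30d ranked 3, 4 and 4 within the family in OCExoInhib samples 1, 2 and 3, and 1, 3 and 2 in vehicle samples 1, 2 and 3.

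The distance between a pair of members in the same sample does not depend on the control wells, so it compares the members with each other. Of the 10 pairs, the 4 that hold miR-30d were separated between groups without overlap, as were 36% of the 6555 pairs of tested miRNAs. The smallest exact two-sided permutation p that 3 samples against 3 allow is 0.1, which these 4 pairs had, and the Benjamini-Hochberg value over the 10 pairs was 0.25, so none passed.

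miR-30b and miR-30d, whose genes lie on the same chromosome, stood in a different order in the groups. The Ct of miR-30b minus that of miR-30d was −6.22, −6.49 and −3.25 cycles in OCExoInhib samples 1, 2 and 3, and 1.28, −0.831 and 2.98 in vehicle samples 1, 2 and 3. miR-30b thus gave the earlier signal by over 3 cycles in every OCExoInhib sample, and the earlier signal in 1 of 3 vehicle samples (vehicle 2). The difference between the group means was −6.46 cycles (SE 1.51, exact permutation p 0.1).

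The distances of miR-30d from miR-30e, miR-30c and miR-30a also did not overlap between the groups. The Ct of miR-30d minus that of miR-30e averaged 7.40 ± 1.67 cycles in OCExoInhib and 0.920 ± 1.66 in vehicle samples (each n = 3, SD, exact permutation p 0.1). The Ct of miR-30c minus that of miR-30d averaged −0.164 ± 2.28 cycles in OCExoInhib and 6.33 ± 2.21 in vehicle samples (each n = 3, SD, exact permutation p 0.1). The Ct of miR-30a minus that of miR-30d was 0.487 ± 1.10 cycles in OCExoInhib and 3.86 ± 1.70 in vehicle samples (each n = 3, SD, exact permutation p 0.1).

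miR-30a and miR-30e, which differ by 1 base, were far apart in every sample. The Ct of miR-30a minus that of miR-30e was 10.9, 7.33 and 5.45 cycles in OCExoInhib samples 1, 2 and 3, and 4.32, 4.08 and 5.93 in vehicle samples 1, 2 and 3. The groups overlapped, and the difference of 3.11 cycles between their means had an SE of 1.70 (exact permutation p 0.2). Whether each assay also detects the neighbouring sequence was not tested. The distances of miR-30a from miR-30b and from miR-30c differed between group means by 3.09 cycles (SE 1.73) and 3.13 cycles (SE 1.86) with overlapping groups (exact permutation p 0.2 for each). Among miR-30b, miR-30c and miR-30e the differences between group means were 0.035 cycles (SE 1.32) for miR-30b minus miR-30c, 0.024 (SE 1.50) for miR-30b minus miR-30e and −0.011 (SE 2.52) for miR-30c minus miR-30e, with exact permutation p of 0.9 to 1.

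**Figure D4:**
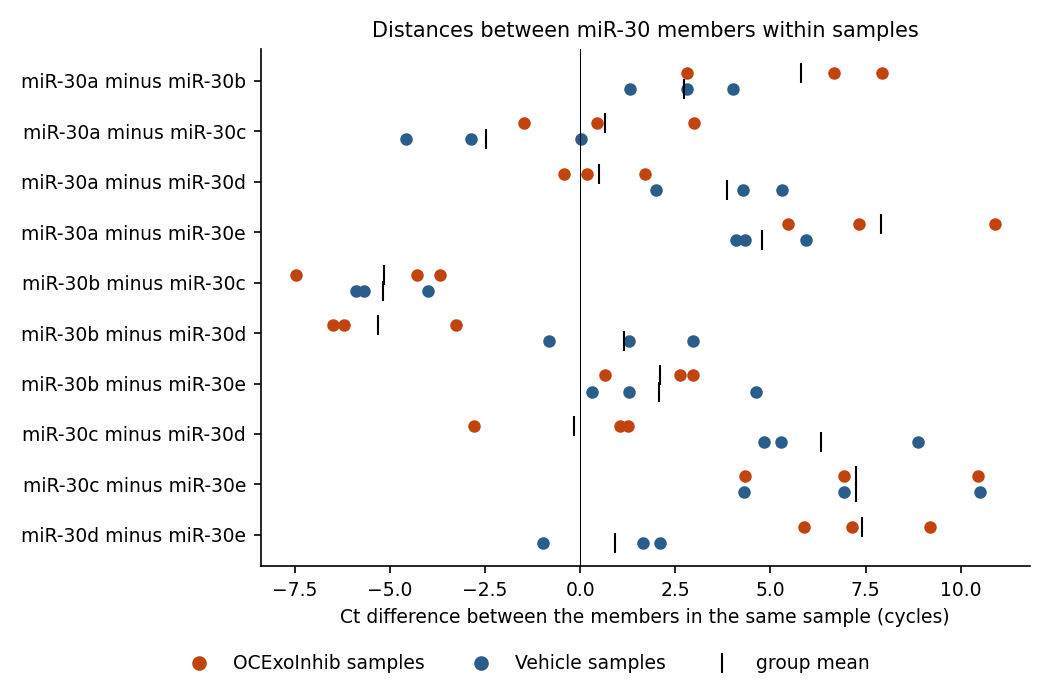
Ct difference between members in the same sample for the 10 pairs, in cycles, with OCExoInhib samples (orange) above vehicle samples (blue) and group means as ticks. Only the 4 pairs that hold miR-30d show no overlap between the groups.

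The members that fell carried Ct differences that recurred in other miRNAs. A recurring difference is one between samples of the same group that at least 5 miRNAs shared within 0.0015 cycles. For miR-30a, vehicle 1 minus vehicle 3 was the 0.939 cycles that 17 miRNAs had in common, and OCExoInhib 1 minus OCExoInhib 2 was the 0.570 cycles that 10 miRNAs had in common. For miR-30d, OCExoInhib 1 minus OCExoInhib 3 was the 1.886 cycles that 10 miRNAs had in common, while its vehicle values carried no such difference. miR-30b, miR-30c and miR-30e carried none. Of all 115 tested miRNAs 23 carried one, and 22 of these 23 passed the threshold, 19 of them among the 20 called lower. The part of this pattern in the falls of miR-30a and miR-30d was not tested. A fit without the 23 miRNAs leaves only miR-30b, miR-30c and miR-30e of the family, of which 0 passed by limma (0 at an unadjusted p under 0.05). With vehicle 1 and vehicle 3 averaged to 1 sample, limma gave log2 differences of −6.77 for miR-30d (adjusted p 0.00125) and −3.87 for miR-30a (adjusted p 0.0181).

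**Figure D5:**
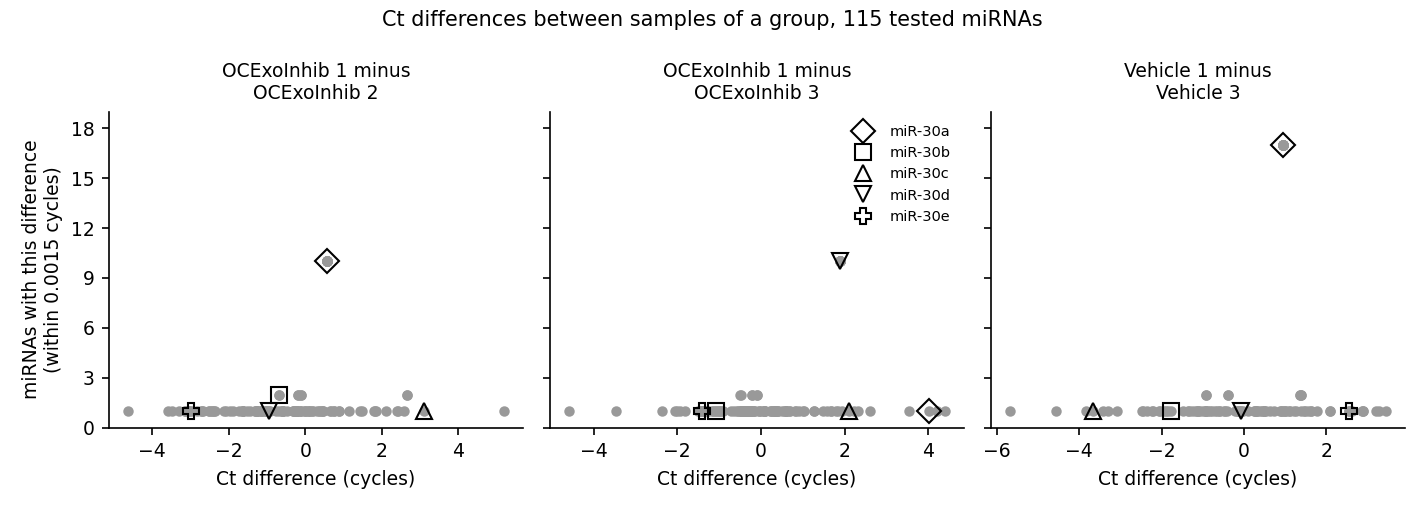
Ct difference between samples of a group (horizontal, cycles) and the number of tested miRNAs that share it within 0.0015 cycles (vertical), for 3 pairs of samples; grey points are miRNAs and open symbols the miR-30 members. miR-30a sits on the differences shared by 10 and by 17 miRNAs and miR-30d on one shared by 10, while the other members share theirs with at most 1 other miRNA.

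Likeness between profiles was measured as the mean absolute difference of log2 levels over the 6 samples after each miRNA was centred on its own mean, where a smaller value is a closer match. The closest miRNAs to miR-30a were miR-378 (0.601), miR-194 (0.649) and let-7e (0.676), against a median of 1.97 over all others. These 3 share with miR-30a both of its recurring Ct differences. The closest to miR-30d were miR-652 (1.38), let-7e (1.47) and miR-107 (1.52), against a median of 3.43. Of these, miR-652 and let-7e share the recurring Ct difference of miR-30d. All the miRNAs named here as closest to miR-30a or miR-30d were themselves called lower, and the centring keeps the difference between groups. The closest to miR-30b were miR-34b-5p (0.234), miR-291a-3p (0.254) and miR-452 (0.304), to miR-30c miR-325 (0.541), miR-293 (0.740) and miR-449a (0.829), and to miR-30e miR-19a (0.573), miR-200a (0.604) and miR-505 (0.674). The medians over all others were 1.00 for miR-30b, 1.63 for miR-30c and 1.28 for miR-30e. Within the family the closest pair was miR-30b and miR-30c (1.18), and the farthest was miR-30c and miR-30d (3.25). The value of the closest pair was above the median for miR-30b and below that for miR-30c. No member was among the 3 closest of another.

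Of 10 other panel miRNAs reported to lower Runx2, 7 had no Ct in any sample, including miR-204 and miR-23a, which is near the 67.6% (257 of 380) of all named panel miRNAs. Of the 3 tested, 1 was called lower and 0 higher, against 17.4% lower and 6.09% higher of all tested miRNAs. Their median log2 difference was −0.45, and that of all tested miRNAs was −0.54. The one called was miR-133a, best known from muscle (log2 difference −2.82, SE 0.84, limma adjusted p 0.0184), which also carried recurring Ct differences. Its adjusted p ranged from 0.00427 to 0.733 over the settings tried and was 0.121 without OCExoInhib 1, 0.0608 without OCExoInhib 3 and 0.0762 without vehicle 3. miR-34c and miR-205 had log2 differences of −0.41 and −0.45.

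Other seed families also held members that passed beside members that did not, where 17.4% of all tested miRNAs were called lower and 6.09% higher. In the let-7 family 2 of 6 tested members were called lower (median log2 difference −0.60), and 2 of 4 were in the family of miR-15 and miR-16 (median −2.76). In the miR-29 family 1 of 3 was called higher and 0 lower (median −0.63). All 5 of these called members carried a recurring Ct difference, as did miR-30a and miR-30d and 22 of all 27 called miRNAs. With 3 to 6 members per family, no difference between the families was tested.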

How the data were processed

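Serum exosomal miRNAs were quantified with SYBR Green PCR over 40 cycles on a ViiA7, per the labels' protocols. The authors' raw file holds Ct per well, per the file headers. The authors' deposited normalized values are log2-scale Ct differences (spike-in control, per the file headers) and equal raw Ct minus the mean of wells P21, P22 and P23. The authors' deposited fold table is the ratio of vehicle over OCExoInhib, and its folds for the 5 members equal those of the mean normalized values. How the fluorescence threshold was set is not stated in the sources used. Of 384 wells, 126 had a Ct in all samples and 258 in none. Read depth does not apply to PCR, and 3 samples per group limit the precision.

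The 115 miRNAs that had 3 or more samples under Ct 35 were fitted with limma 3.58.1 in R 4.3.3 (lmFit, eBayes, two-sided, Benjamini-Hochberg over 115), which was tested on simulated data. Member pairs were compared with exact permutation tests (Python 3.11.15, scipy 1.17.1). Named miRNAs are the 5 members, the 3 closest profiles to each, called members of the Runx2 list and up to 2 others of it, and the control wells; marker and family miRNAs come from lists. The members and lists were chosen with earlier results of these data known. Alternatives were other normalizations, single control wells, Ct limits, the sample number as a block, leaving out single samples, 2 further variance models, and the handling of recurring Ct differences. Deviations from group means correlated between same-numbered samples by 0.0587, 0.0177 and 0.117, not all over 0.1, and the numbers were therefore not treated as pairing the samples.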

Additional observations from a re-analysis of the deposited data

How the results depend on the processing

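miR-30d kept its direction and its call under all 20 alternatives in which it was tested, with log2 differences from −8.51 to −4.82. miR-30a kept its direction under its 20 and lost its call under 5, with log2 differences of −2.80 (global mean), −2.44 (quantile), −3.25 (no normalization), −1.45 (median centring) and −3.98 (unmoderated test). Under these 5 settings 1 member passed, and without the miRNAs with recurring Ct differences 0 did, because both were left out. All tested miRNAs that passed numbered 27 of 115 (20 lower). They numbered 21 with global mean (14 lower), 22 with no normalization (15 lower) and 16 with quantile normalization (9 lower). Median centring gave 68 (11 lower, 57 higher), the unmoderated test 15 (11 lower), and the fit without recurring differences 5 of 92 (1 lower). Signs turned for miR-30b (0.29 with global mean, 1.64 with median centring), miR-30c (0.33, 1.68, 0.25 with quantile, 0.22 without vehicle 1) and miR-30e (0.32, 1.66, 0.11 without vehicle 3), none past the threshold. Leaving out 1 sample gave 24 to 27 miRNAs, 2 to 2 members, and log2 differences of −4.93 to −3.29 (miR-30a), −1.26 to −0.34 (miR-30b), −1.76 to 0.22 (miR-30c), −8.51 to −6.74 (miR-30d) and −1.68 to 0.11 (miR-30e). It gave 4 to 7 of 10 member pairs without overlap. The share over all pairs of tested miRNAs was taken only with all samples (36%), so the counts under alternatives have no matching share. The 7 came without OCExoInhib 3, and 7 also came with vehicle 1 and 3 averaged; fewer samples overlap less often. With the sample number as a block, 25 miRNAs and 2 members passed (adjusted p 0.0127 for miR-30d and 0.0188 for miR-30a), and no call on a member changed. For 6 of 10 member pairs, the Ct distance differed in the same direction between every 2 same-numbered samples. That count concerns direction only and is not one of overlap between the groups. Apart from what is said here, the cause was not tested.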

Other observations

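The distance of miR-30c from miR-30e took nearly the same 3 values in both groups. In order of size, the Ct of miR-30c minus that of miR-30e was 4.34, 6.93 and 10.5 cycles in OCExoInhib samples and 4.30, 6.94 and 10.5 cycles in vehicle samples. The largest gap between the ordered values of the groups was 0.055 cycles. Among the 6555 pairs of tested miRNAs it was the 1 pair with a gap this small, and the median gap was 2.11 cycles. The pair was picked out of these 6555 after its values were seen, and how the match arose was not tested.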
